A study of Mus musculus with 23 samples.

Results

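Severe phlebotomy-induced anemia was compared with no bleeding in the hippocampus of male mouse pups. The comparison used 7 of the 23 libraries of the study, which were those labelled male together with either severe anemia or non-bled control. All genes with enough reads entered it, 15475 of the 24421 in the count table, with no selection on how they responded. Gene expression was measured by sequencing polyadenylated RNA on postnatal day 14.

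Pups with severe anemia (sPIA) were bled from the facial vein from postnatal day 3, with 2 daily draws of 5.25 µl per g, until the haematocrit came down to a goal of 18%, and by 3.5 µl per g once a day from then until day 14. The haematocrit is the volume fraction of red cells in blood. Non-bled control pups (NBC) had only a needle prick at the neck and were killed at the same age. Another group with moderate anemia (mPIA) had the same bleeding to a goal of 25%, and all 3 levels were studied in both sexes. The males compared were sPIA males 1 to 4 and NBC males 2 to 4, each read as a separate mouse because the design text describes separate animals. The labels name no strain, genotype or litter, and no treatment that the sPIA and NBC pups had in common.

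Blood loss in the newborn lowers both the oxygen carried to the brain and the iron available to it. Cells that are short of oxygen stabilise hypoxia-inducible factors (HIF), which switch on genes for vessel growth, such as Vegfa, for glucose uptake, such as Slc2a1, and for glycolysis. The hippocampus is still building dendrites, synapses and myelin at this age, and these processes depend on iron-containing enzymes.

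Library totals were 18826813 to 22048352 counts in sPIA males and 19093961 to 26355712 counts in NBC males. The labelled sex was borne out by Ddx3y, a Y-linked gene, at 80.0 to 92.7 counts per 1000000 counts of the library (CPM) in sPIA males and 78.4 to 88.1 CPM in NBC males, with Xist below 1 CPM in all 7. Summed hippocampal neuron markers (Prox1, Wfs1, Fibcd1, Neurod6, Grik4, Zbtb20 and Slc17a7) reached 1989.9 to 2526 CPM in sPIA males and 2149 to 2616 CPM in NBC males. Haemoglobin rows Hbb-bs and Hba-a1 were listed at 0 in every library and give no measure of the anemia. The numbers behind the letter S in the library names were 13 to 16 for all sPIA males and 38 to 40 for all NBC males. The labels do not say what these numbers mean, and whatever they stand for cannot be told apart from the anemia.

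The 3 NBC males were not alike. The 15 markers of choroid plexus epithelium, the tissue in the ventricles that makes cerebrospinal fluid, each detected in at least 1 library, summed to 177, 144, 44 and 26.3 CPM in sPIA males 1 to 4. In NBC males 2, 3 and 4 they summed to 23.9, 2695 and 4787 CPM. Of these markers Tmem72 was at 0 in sPIA males 3 and 4 and NBC male 2, Slc4a5 in sPIA males 3 and 4, and Folr1 and Aqp1 in sPIA male 4. Its most abundant transcript, Ttr, which encodes transthyretin, stood at 135, 111, 16.1 and 6.16 CPM in sPIA males, against 1.23, 2464 and 4377 CPM in NBC males. NBC males 3 and 4 were thus far above the 5 others, and NBC male 2 was the lowest for Ttr. The 7 markers of ciliated ependyma, which lines the ventricles, summed to 18.9 to 26.2 CPM in sPIA males and to 19.6, 28.5 and 66.2 CPM in NBC males 2 to 4. The 7 meningeal fibroblast markers summed to 143 to 225 CPM in sPIA males and to 144, 344 and 286 CPM in NBC males 2 to 4. Results are therefore also given without NBC male 4, without both NBC males 3 and 4, and with the choroid plexus level as a covariate.

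**Figure D1:**
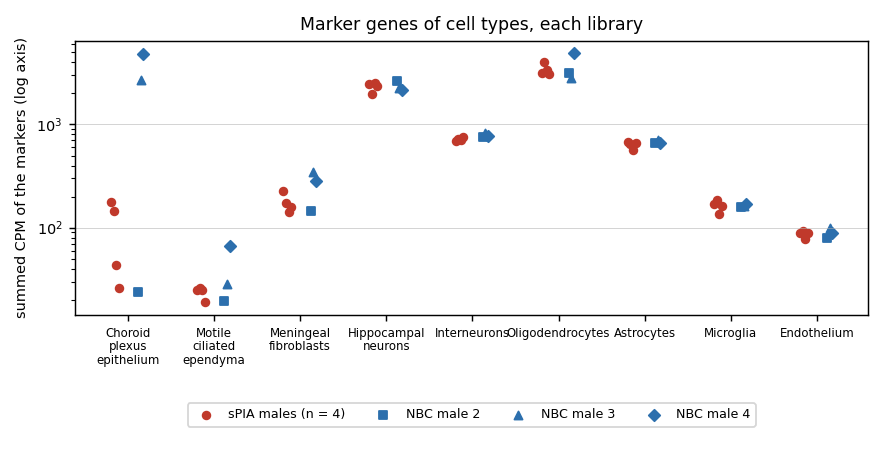
Summed CPM of marker genes (log axis) of 9 cell types in each library, with sPIA males in red and NBC males 2, 3 and 4 in blue. NBC males 3 and 4 reached 2695 and 4787 CPM of choroid plexus markers, while the 5 other libraries had 177 CPM or less; the neuron, interneuron, astrocyte, microglia and endothelium sums lay close together in all 7.

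The first question was which genes differed between severely anemic and non-bled males. Of 15475 genes, 30 passed the test, 0.194% of those tested, at an adjusted p below 0.05 (edgeR's quasi-likelihood test, Benjamini-Hochberg). Of these, 13 were higher in sPIA males (0.084%) and 17 lower (0.11%). Vessel genes Cxcl12, Kdr and Tmem100 were among the genes that rose. The genes that fell included the chaperones Cryab and Hspa8 and the mitochondrial genes Cox18 and Nnt. The median size of the 30 changes was 0.77 on the log2 scale, and 10 of them were larger than 1, that is 2-fold. In each of the 30 genes the 4 sPIA males lay all above or all below the 3 NBC males. Over all genes tested, 3.21% lay all above and 3.1% all below. The 30 were picked by a test on these same libraries, which favours genes without overlap. Their separation is thus not further evidence.

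**Figure D2:**
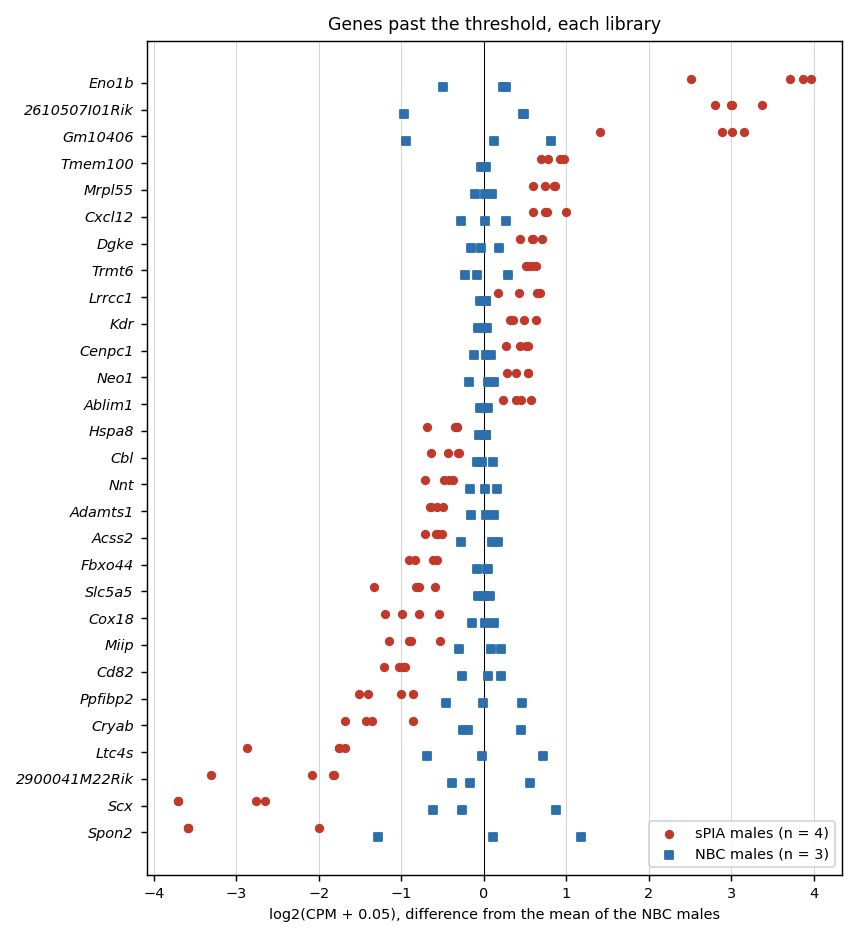
Each library's log2(CPM + 0.05), as a difference from the mean of the 3 NBC males, for 29 of the 30 genes that passed, with sPIA males as red circles above NBC males as blue squares. The 13 genes that rose stand at the top and 16 of the 17 that fell below, and the sPIA and NBC libraries overlap in none of them.

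Among vessel genes, Cxcl12 encodes a chemokine that attracts cells bearing its receptor Cxcr4 and is cleared by a second receptor, Ackr3. It had 114, 151, 129 and 126 CPM in sPIA males 1 to 4, against 62.4, 91.0 and 76.1 CPM in NBC males 2 to 4. The means were 130 ± 15.6 CPM in sPIA males (SD, n = 4) and 76.5 ± 14 CPM in NBC males (SD, n = 3). The log2 change was 0.76, with an SE of 0.13 and an adjusted p of 0.0111. The lowest sPIA male stood clearly over the highest NBC male. Its receptors were not called: Cxcr4 had 10.6 to 11.7 CPM in sPIA males and at most 12.3 CPM in NBC males, with overlap (log2 change -0.07, adjusted p = 0.89). Ackr3 had 12.1 to 15.2 CPM in sPIA males and 15.3 to 19.6 CPM in NBC males (log2 change -0.33, adjusted p = 0.358).

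Kdr encodes VEGF receptor 2, the main signalling receptor for Vegfa on endothelial cells. It had 61.9, 77.4, 63.7 and 69.7 CPM in sPIA males 1 to 4, against 47.4, 51 and 50.8 CPM in NBC males 2 to 4. Every sPIA male was above every NBC male, and the log2 change was 0.45 ± 0.09 (SE, adjusted p = 0.0194). Tmem100 encodes a membrane protein that mouse endothelium needs for vessel development downstream of the receptor Acvrl1. It had 30.9, 31.9, 26.3 and 27.9 CPM in sPIA males, against 16.3, 16.6 and 15.9 CPM in NBC males. Its 3 NBC values hardly varied and lay far below the sPIA males (log2 change 0.85 ± 0.12, SE, adjusted p = 0.0017). The 3 general endothelial markers Cldn5, Pecam1 and Cdh5 summed to 77.1 to 93.6 CPM in sPIA males and 80.1 to 99.7 CPM in NBC males, which overlapped. In whole tissue, more cells of a type and more RNA per cell cannot be told apart.

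Sequences just upstream of the transcription start are shown for Cxcl12 and Kdr, the vessel genes above, and for Mrpl55, described further on. They come from RefSeq on build GRCm38.p6 and cover the 250 bases before the start, 5′ to 3′ on the gene's strand, with letters ACGTG or GCGTG, on either strand, in capitals. These are the letters of the core to which HIF binds, and the searches of the strands can overlap where the letters read the same both ways.
Cxcl12, chr6:117168285-117168534, plus strand: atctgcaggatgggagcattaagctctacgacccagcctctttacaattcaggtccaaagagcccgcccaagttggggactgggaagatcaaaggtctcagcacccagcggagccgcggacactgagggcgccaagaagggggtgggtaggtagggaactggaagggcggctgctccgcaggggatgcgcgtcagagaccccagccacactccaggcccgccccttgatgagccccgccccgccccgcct
Kdr, chr5:75978456-75978705, minus strand: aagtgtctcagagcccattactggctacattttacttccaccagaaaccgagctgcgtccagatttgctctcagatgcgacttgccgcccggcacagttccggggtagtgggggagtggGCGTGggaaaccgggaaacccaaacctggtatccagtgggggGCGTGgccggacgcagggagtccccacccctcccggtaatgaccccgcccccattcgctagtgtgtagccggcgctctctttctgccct
Mrpl55, chr11:59202236-59202485, plus strand: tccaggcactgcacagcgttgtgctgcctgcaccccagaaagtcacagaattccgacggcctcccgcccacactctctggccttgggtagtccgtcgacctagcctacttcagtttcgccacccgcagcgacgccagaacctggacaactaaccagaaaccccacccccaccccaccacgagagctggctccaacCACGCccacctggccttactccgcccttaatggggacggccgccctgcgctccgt
The Kdr window held the letters 2 times, the Mrpl55 window 1 time on the opposite strand, and in the Cxcl12 window these letters were not found. Of 32851 RefSeq promoters of 300 bases (250 before and 50 after the start), 12679 (38.6%) held the letters. Of the 30 genes, 19 matched a RefSeq promoter, and the letters stood in at least 1 promoter of 7 of the 9 matched genes that rose and 8 of the 10 that fell. The share was 59.4% among the 11627 tested genes with a promoter, and a match is a description of sequence, not of binding.

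The fixed genes of oxygen shortage and iron did not pass in males in the fit of all libraries, although Vegfa and Tfrc passed under alternatives. Adm, a HIF target that encodes adrenomedullin, a peptide that widens vessels, had 3.69, 3.44, 4.81 and 3.32 CPM in sPIA males, against 2.86, 2.30 and 2.30 CPM in NBC males. These ranges did not overlap, but the log2 change of 0.62 ± 0.24 (SE) had an adjusted p of 0.284. Vegfa, the ligand of Kdr, had 118, 142, 134 and 121 CPM in sPIA males, against 109.8, 85.6 and 98.6 CPM in NBC males. All 4 sPIA males were above all 3 NBC males here too, and the log2 change was 0.40 ± 0.10 (SE, adjusted p = 0.0809). DESeq2 called it, and without NBC male 2 it passed in edgeR's test too, at 0.48 (adjusted p = 0.0201). Slc2a1, the glucose transporter of the blood-brain barrier, had 59.0 to 72.3 CPM in sPIA males and 64.3 to 97.3 CPM in NBC males (log2 change -0.20 ± 0.13, SE, adjusted p = 0.585). Tfrc, the transferrin receptor through which cells take up iron, spread over 216 to 426 CPM in sPIA males and 218 to 361 CPM in NBC males (log2 change 0.26 ± 0.27, SE, adjusted p = 0.747). Its log2 change was 0.09 to 0.53 with 1 library left out. With the first part of the library name as a block the log2 change was 0.97 (adjusted p = 0.00249), and Tfrc passed. In that fit sPIA males 1 and 2 and NBC male 4, whose name parts occur in no other library, add nothing to the difference. The males left are compared partly through sPIA females that share their name parts. Bdnf, a neurotrophin, had 53 to 75.9 CPM in sPIA males and 44.2 to 63.7 CPM in NBC males (log2 change 0.15 ± 0.12, SE, adjusted p = 0.653). The last 3 overlapped between the groups.

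Among genes of the cytoskeleton, of guidance and of cell division, Ablim1, which encodes an actin-binding LIM protein, had 143, 156, 137 and 123 CPM in sPIA males. In NBC males it had 108, 101 and 105 CPM, all lower, and the log2 change was 0.42 ± 0.07 (SE, adjusted p = 0.00397). Neo1 encodes neogenin, a receptor for netrins and repulsive guidance molecules. It had 276, 255, 305 and 306 CPM in sPIA males, against 219, 229 and 186 CPM in NBC males (log2 change 0.43 ± 0.09, SE, adjusted p = 0.0194). Cenpc1, a kinetochore protein, had 38.2 to 46.1 CPM in sPIA males and 29.3 to 33.8 CPM in NBC males (log2 change 0.44, adjusted p = 0.0194). Lrrcc1, a centrosome protein, had 26.5 to 38 CPM in sPIA males and 22.7 to 23.8 CPM in NBC males (log2 change 0.50, adjusted p = 0.0214). Apart from these, Dgke, a lipid kinase that phosphorylates diacylglycerol, had 68.0 to 81.6 CPM in sPIA males and 45.1 to 56.8 CPM in NBC males (log2 change 0.58, adjusted p = 0.0102). Trmt6, a subunit of a tRNA methyltransferase, had 31.4 to 34.1 CPM in sPIA males and 18.8 to 27.0 CPM in NBC males (log2 change 0.55, adjusted p = 0.0437).

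A pair of genes that rose begin next to each other on chromosome 11 and point away from each other. Mrpl55, a protein of the large subunit of the mitochondrial ribosome (chr11:59202486-59206134, plus strand, mm10), starts 55 bases from the RefSeq start of 2610507I01Rik, a noncoding transcript on the minus strand (chr11:59199836-59202385). The upstream sequence of Mrpl55 printed above contains the start of its neighbour. 2610507I01Rik had 14.7, 9.82, 11.4 and 11 CPM in sPIA males, against 1.92, 0.678 and 1.94 CPM in NBC males. All sPIA males were several times above all NBC males (log2 change 2.99 ± 0.55, SE, adjusted p = 0.0194). Mrpl55 had 14.2, 13.1, 14.1 and 11.8 CPM in sPIA males, against 7.2, 7.87 and 8.32 CPM in NBC males (log2 change 0.77 ± 0.17, SE, adjusted p = 0.0438). The sources used here do not say whether counting used strand, so reads near the shared start cannot be assigned with certainty.

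The largest rise was that of Eno1b, an intronless copy of the glycolytic enolase gene Eno1, on chromosome 18. It had 16.8, 38.5, 43.2 and 46.0 CPM in sPIA males, against 3.40, 3.50 and 2.04 CPM in NBC males. No libraries overlapped, and the log2 change was 3.58 ± 0.56 (SE, adjusted p = 0.0111). Eno1 itself, whose transcript Eno1b closely resembles, was listed at only 1.52 to 2.57 CPM in sPIA males and 1.15 to 2.56 CPM in NBC males. How reads that match both copies were counted is not given, so the Eno1b level is uncertain. On the glucose and glycolysis list 0 of 26 genes passed in edgeR's test, DESeq2 or limma-voom, and 5 had an unadjusted p below 0.05; 13 had a positive change, and the median log2 change was 0.00. Gm10406, a predicted protein-coding gene at low level, had 2.49, 2.07, 0.709 and 2.25 CPM in sPIA males, against 0.0987, 0.452 and 0.262 CPM in NBC males (log2 change 2.72 ± 0.52, SE, adjusted p = 0.0167).

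Among the genes that fell, Fbxo44 encodes the F-box subunit that picks targets for a ubiquitin ligase (chr4:148152800-148160482, minus strand, mm10). It had 43.2, 34, 36 and 41.9 CPM in sPIA males, against 65.6, 66.4 and 60.2 CPM in NBC males (log2 change -0.72 ± 0.11, SE, adjusted p = 0.0017). The groups lay far apart relative to their spread. Miip, which encodes an inhibitor of cell migration and lies 284 kb away on the same chromosome, had 10.7, 6.93, 8.21 and 8.35 CPM in sPIA males. In NBC males Miip had 17.9, 12.6 and 16.5 CPM (log2 change -0.86 ± 0.17, SE, adjusted p = 0.022). Cbl, a ubiquitin ligase that turns off receptor tyrosine kinases, had 33.4 to 42.5 CPM in sPIA males and 49.2 to 56.4 CPM in NBC males (log2 change -0.42, adjusted p = 0.0332).

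A pair of the falling genes are chaperones. Cryab, a small heat shock protein abundant in oligodendrocytes and astrocytes, had 11.2, 16.7, 11.8 and 9.37 CPM in sPIA males, against 25.3, 26.5 and 41.2 CPM in NBC males (log2 change -1.33 ± 0.23, SE, adjusted p = 0.0167). The highest NBC value was that of NBC male 4, and without it the log2 change was -1.08 (adjusted p = 0.124). NBC male 4 also had the highest sum of oligodendrocyte markers, 4894 CPM, with 3052 to 3983 CPM in sPIA males and 3141 and 2838 CPM in NBC males 2 and 3, and the part of these cells in the Cryab level was not tested. Hspa8, the constitutive member of the Hsp70 family, had 929, 916, 935 and 723 CPM in sPIA males, against 1185, 1124 and 1191 CPM in NBC males (log2 change -0.41 ± 0.09, SE, adjusted p = 0.0313). It was the only 1 of the 28 genes on the list of the unfolded protein and integrated stress response to pass, and that list had a median log2 change of -0.06 with 11 positive.

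Several falling genes work in mitochondria or supply acetyl groups. Cox18 inserts a subunit of cytochrome c oxidase into the inner membrane. It had 9.03, 7.84, 12.3 and 10.4 CPM in sPIA males, against 18.2, 16.3 and 19.6 CPM in NBC males (log2 change -0.86 ± 0.15, SE, adjusted p = 0.0111). Nnt, which makes NADPH in the inner membrane, had 15.7 to 19.9 CPM in sPIA males and 22.9 to 28.6 CPM in NBC males (log2 change -0.50, adjusted p = 0.0498). Acss2, which makes acetyl-CoA from acetate outside mitochondria, had 32.7 to 37.7 CPM in sPIA males and 44.2 to 60.6 CPM in NBC males (log2 change -0.60, adjusted p = 0.0332). These 3 did not overlap between the groups, whereas 0 of 31 nuclear-encoded subunits of oxidative phosphorylation passed, with 8 positive, 1 at an unadjusted p below 0.05 and a median log2 change of -0.04. With NBC male 2 as the only control 26 of these 31 were positive, with a median of 0.06.

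At the membrane and in the matrix, Slc5a5, the sodium-iodide symporter, had 13, 15.3, 9.12 and 13.4 CPM in sPIA males, against 23.1, 24.2 and 21.9 CPM in NBC males (log2 change -0.86 ± 0.18, SE, adjusted p = 0.0313). Cd82, a tetraspanin, had 4.46 to 5.35 CPM in sPIA males and 8.68 to 12 CPM in NBC males (log2 change -1.06, adjusted p = 0.0102). Adamts1, a secreted protease of matrix proteoglycans, had 20.8 to 23.3 CPM in sPIA males and 29.5 to 35.8 CPM in NBC males (log2 change -0.59, adjusted p = 0.0111). All 3 were lower in every sPIA male. Ppfibp2, a liprin, had 3.27 to 5.21 CPM in sPIA males, against 6.86, 9.42 and 13.1 CPM in NBC males 2 to 4 (log2 change -1.22, adjusted p = 0.0194). Its NBC values stood in the order of the choroid plexus sums. With the choroid plexus level as a covariate its log2 change was -0.86 (adjusted p = 0.203). Cd82, at 8.68, 10.8 and 12 CPM in NBC males 2 to 4, stood in the same order. With that covariate the log2 change of Cd82 was -0.83 (adjusted p = 0.0781).

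The largest falls on the log2 scale were in scarcely detected genes. Spon2, a secreted matrix protein, had 2 reads in all 4 sPIA males together and 45 in the 3 NBC males, of which 4, 16 and 25 lay in NBC males 2, 3 and 4. Scaled to depth the sPIA level was 0.0365 of the NBC level, with an exact 95% counting interval of 0.00429 to 0.14. Scx, a transcription factor of tendon, had 2 reads in sPIA males and 42 in NBC males, a ratio of 0.0392 with an interval of 0.00459 to 0.151. These intervals cover counting error alone. Ltc4s, which makes leukotriene C4, had 0.277 to 0.696 CPM in sPIA males, against 1.43, 2.30 and 3.87 CPM in NBC males 2 to 4 (log2 change -2.14 ± 0.39, SE, adjusted p = 0.0114). 2900041M22Rik, a noncoding transcript, had 0.101 to 0.375 CPM in sPIA males and 1.09 to 2.15 CPM in NBC males (log2 change -2.36 ± 0.46, SE, adjusted p = 0.0194). NBC male 4, which held the most choroid plexus transcripts, had the highest value of Spon2, Scx, Ltc4s and 2900041M22Rik.

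The number of genes past the threshold turned on single control libraries. Without NBC male 2 it was 249, of which 68 were higher and 181 lower in sPIA males, and without NBC male 4 it was 4. Leaving out NBC male 3 gave 53 genes, and leaving out sPIA males 1, 2, 3 and 4 gave 48, 21, 27 and 18. Fbxo44, Tmem100 and Ablim1 passed in all 7 of these fits, with log2 changes of -0.78 to -0.67, 0.80 to 0.89 and 0.36 to 0.48 and adjusted p of 0.0023 to 0.0172, 0.00244 to 0.022 and 0.000629 to 0.0267. Another 9 genes (Eno1b, Gm10406, Cxcl12, Dgke, Adamts1, Cox18, Cd82, Ltc4s and Scx) lost the call only without NBC male 4. Mrpl55 passed in none of the 7 fits, with adjusted p of 0.0529 to 0.124. The 27 genes that lost the call without NBC male 4 had adjusted p of 0.0878 to 0.27 in that fit. Their log2 changes kept their sign, which the lack of overlap between the groups had fixed beforehand. Across all 30 genes the log2 change without NBC male 4 was 0.795 to 1.1 times that with all 7 libraries.

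**Figure D3:**
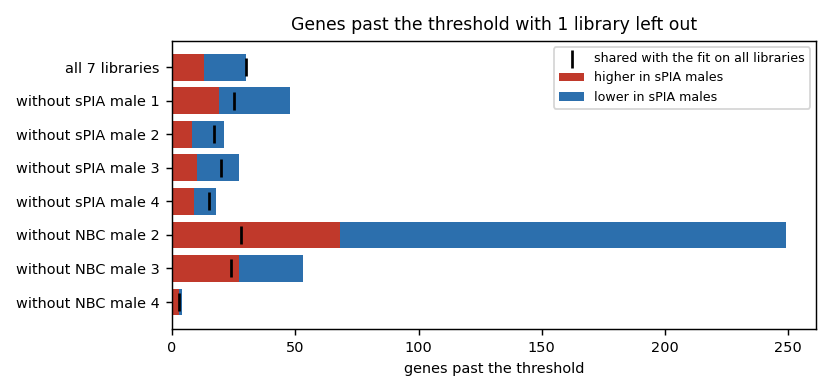
Number of genes past the threshold with all 7 libraries and with each left out in turn, split into genes higher (red) and lower (blue) in sPIA males, with a black mark at the number shared with the 30 genes. The bar without NBC male 2 reaches 249 and the bar without NBC male 4 only 4, of which 3 are shared.

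With NBC male 2 as the only control, the log2 change of all 30 genes had the same sign as with 3 controls. This was fixed beforehand, since in each of these genes every sPIA male lay on the same side of every NBC male. The log2 change with this control alone was 1.06 for Cxcl12, 0.85 for Tmem100 and 0.53 for Kdr. With the choroid plexus level as a covariate 13 genes passed, 11 of them among the 30: Ablim1, Adamts1, Cox18, Cxcl12, Dgke, Eno1b, Fbxo44, Gm10406, Miip, Mrpl55 and Tmem100. Kdr had nearly the same log2 change, 0.42, in that fit, with an adjusted p of 0.129. Some of the first parts of the library names (P05 to P15) recur between groups. With them as a block 36 genes passed, of which 4 were among the 30: Cryab, Cxcl12, Fbxo44 and Ppfibp2. P05, P08 and P15 each occur in a single library. In that fit sPIA males 1 and 2 and NBC male 4 thus add nothing to the difference. Only P14 holds both a sPIA male (male 4) and an NBC male (male 3). The parts of sPIA male 3 (P11) and NBC male 2 (P13) recur only in sPIA females, so these males enter through those females.

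The second question was how whole pathways and cell types stood. The 32 lists held 856 genes, of which 820 were tested, and 2 of these rose (Cxcl12 and Kdr) and 1 fell (Hspa8). Over all genes tested 7763 of 15475 had a positive change, and the median log2 change was 0.00. At an unadjusted p below 0.05 stood 1880 of all genes (12.1%), and DESeq2 and limma-voom called 155 and 22. Most lists had a median log2 change close to 0.00. Among HIF targets outside glycolysis, 0 of 38 passed in edgeR's test, 9 had an unadjusted p below 0.05, 26 had a positive change and the median log2 change was 0.04. DESeq2 called Vegfa (log2 change 0.40) and Car12, a carbonic anhydrase with a negative change (-0.66), and limma-voom called 0. Apln, which encodes the vessel peptide apelin, had 33.1 to 36.9 CPM in sPIA males and 21.6 to 32.0 CPM in NBC males (log2 change 0.34, adjusted p = 0.363). Hilpda, a lipid droplet protein under HIF, had a negative change that did not pass, with 2.99 to 4.19 CPM in sPIA males and 4.98 to 5.39 CPM in NBC males (log2 change -0.50, adjusted p = 0.311). On the iron list 0 of 33 passed with any of the 3 tools, 7 had an unadjusted p below 0.05, 12 had a positive change and the median was -0.10, against 17 and 0.00 with NBC male 2 alone.

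Glucocorticoid receptors and response genes had the most one-sided signs of the lists outside the choroid plexus and meninges when all 3 controls were used. Of 25 tested 0 passed with any of the 3 tools, 3 had an unadjusted p below 0.05, 2 had a positive change and the median log2 change was -0.17. It was -0.23 without NBC male 4 and -0.33 with NBC male 2 alone. In 5 of them, Pdk4, Tsc22d3, Klf15, Zbtb16 and Mt1, all sPIA males lay below all NBC males, against 3.1% of all genes. Tsc22d3, which encodes the anti-inflammatory protein GILZ, had 61.7, 46.9, 51.4 and 61.0 CPM in sPIA males, against 77.4, 64.0 and 69.5 CPM in NBC males (log2 change -0.35 ± 0.10, SE, adjusted p = 0.155). Pdk4, a kinase that restrains pyruvate oxidation, had 7.95 to 10.8 CPM in sPIA males and 11 to 14.4 CPM in NBC males (log2 change -0.52, adjusted p = 0.16).

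Immediate early genes, which neurons switch on upon firing, had 0 of 28 called by edgeR, 5 at an unadjusted p below 0.05, 9 positive and a median log2 change of -0.10. Without NBC male 4, 5 were positive with a median of -0.13, and with NBC male 2 alone 2 were positive with a median of -0.29. Fosl2 came nearest and was called by DESeq2 but not by limma-voom, with 55.8, 57.3, 57.2 and 58.9 CPM in sPIA males, against 77.5, 81.4 and 68.0 CPM in NBC males (log2 change -0.40 ± 0.09, SE, adjusted p = 0.0668). Egr4 had 10.8 to 12.7 CPM in sPIA males and 13.4 to 16.8 CPM in NBC males (log2 change -0.38, adjusted p = 0.2). Arc overlapped, at 58.6 to 82.2 CPM in sPIA males and 69.1 to 132 CPM in NBC males. Interneuron genes had 0 of 28 called by edgeR, 8 at an unadjusted p below 0.05, 5 positive and a median log2 change of -0.11. Erbb4, a neuregulin receptor of interneurons and the only one DESeq2 called (limma-voom called 0), had 19.7 to 26.7 CPM in sPIA males and 28.4 to 34 CPM in NBC males (log2 change -0.43, adjusted p = 0.1). Sst, which encodes somatostatin, had 87.8 to 104 CPM in sPIA males and 107 to 163 CPM in NBC males (log2 change -0.41, adjusted p = 0.234).

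Endothelial genes had 1 of 32 called by edgeR, Kdr, 7 (21.9%) at an unadjusted p below 0.05 and a median log2 change of 0.01. Vwf, which encodes the clotting protein von Willebrand factor, had 63.6, 64.7, 42 and 55.5 CPM in sPIA males, against 23.9, 41.7 and 19.7 CPM in NBC males. These values touched without overlapping (log2 change 0.98 ± 0.28, SE, adjusted p = 0.155 in edgeR's test). DESeq2 called Vwf and limma-voom did not. Vessel growth genes had 1 of 27 called, Cxcl12, and a median of -0.06. Neurogenesis and proliferation genes had 0 of 31 called by any of the 3 tools, 5 at an unadjusted p below 0.05, 21 positive and a median log2 change of 0.11, the same without NBC male 4. Pcna, a replication factor, had 32.4 to 38.1 CPM in sPIA males and 24.1 to 28.6 CPM in NBC males (log2 change 0.36, adjusted p = 0.185).

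The values of other lists turned on NBC males 3 and 4. Choroid plexus genes had a median log2 change of -2.95 with 1 of 23 positive, of -2.0 without NBC male 4, and of 1.25 with 18 of 23 positive when NBC male 2 was the only control. Meningeal genes had a median of -0.36 with 3 of 29 positive, of -0.34 without NBC male 4, and of 0.27 with 23 positive for NBC male 2 alone. Myelin genes had -0.11 with 4 of 27 positive, 0.03 with 15 positive without NBC male 4, and 0.02 with 15 positive for NBC male 2 alone. Motile cilia genes had -0.04 with 13 of 26 positive, 0.39 with 17 positive without NBC male 4, and 0.49 with 23 positive for NBC male 2 alone. Interferon and MHC class I genes had 0.13 with 15 of 27 positive, 0.00 with 13 positive without NBC male 4, and 0.27 with 21 positive for NBC male 2 alone. In edgeR's test 0 genes of these 5 lists passed, although 21 choroid plexus, 6 meningeal, 1 myelin, 6 motile cilia and 6 interferon and MHC genes had an unadjusted p below 0.05. DESeq2 called 4 choroid plexus genes (Col8a1, Kl, Prlr and Sostdc1), 1 cilia gene (Drc7) and 2 interferon genes (Irf9 and Usp18), and limma-voom 0. The sign of all but the choroid plexus and meningeal medians changed or reached 0.00 with NBC male 4 left out.

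**Figure D4:**
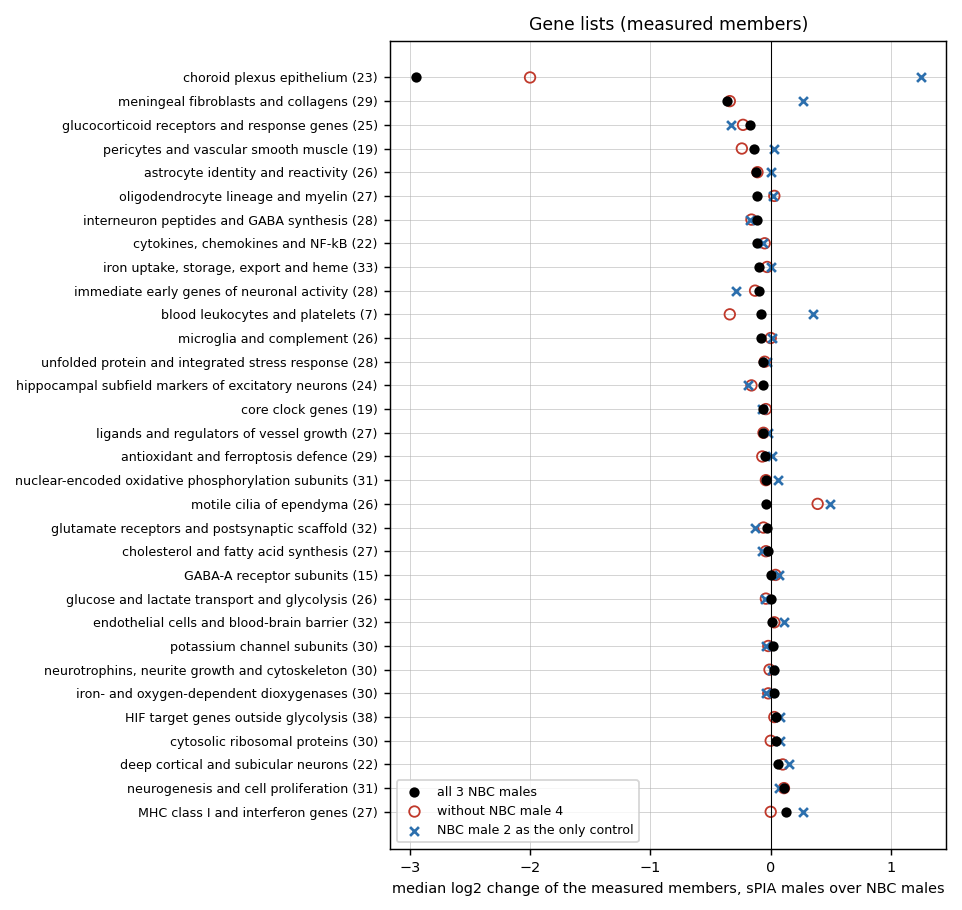
Median log2 change, sPIA males over NBC males, of the measured members (numbers in brackets) of each gene list, with all 3 NBC males (black), without NBC male 4 (open red circles) and with NBC male 2 as the only control (blue crosses). Most black points lie near 0, the choroid plexus median lies at -2.95 and turns to 1.25 with NBC male 2 alone, and the glucocorticoid median stays below 0 at -0.17, -0.23 and -0.33.

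The third question, raised by the title of the series, was whether the response differed by sex. Female libraries share no samples with the males, although all entered a single fit. In females 2472 genes passed between sPIA and NBC (16% of those tested). Of the 30 male genes 10 passed in females too, 9 of them in the same direction. These 9 are 30.0% of the male genes and 0.364% of the female genes. Over the 30 genes 25 had the same sign in females, and over all genes 58.5% had. All NBC females and no sPIA library carry numeric name codes, so the female effect, and any difference of the sexes in it, cannot be told apart from that naming.

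Of the 9 shared genes, Cxcl12 had nearly the same log2 change in males (0.76 ± 0.13, SE) and females (0.74 ± 0.12, SE, adjusted p = 0.000309). Kdr changed by 0.45 in males and 0.57 in females (adjusted p = 5.43e-05), and Tmem100 by 0.85 in males and 0.61 in females (adjusted p = 0.000742). Slc5a5 changed by -0.86 in males and -0.98 in females (adjusted p = 0.000307). Fbxo44 changed by -0.72 in males and -0.45 in females (adjusted p = 0.00265). The others were Ablim1, Miip, Dgke and 2610507I01Rik. For 2610507I01Rik, sPIA females 2 and 4 had 10.3 and 10.6 CPM, while sPIA females 1 and 3 had 2.23 and 1.40 CPM. In Tmem100, Slc5a5, Fbxo44, Miip and Dgke, females 2 and 4 also lay further from the NBC females than females 1 and 3. In Cxcl12, Kdr and Ablim1 they did not. The sex difference itself did not pass for any of the 9, and ranged between -0.34 for Miip and 0.88 for 2610507I01Rik on the log2 scale.

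In the fit of all libraries Adm, Vegfa, Tfrc and Bdnf passed in females and not in males, and Slc2a1 passed in neither. Adm had log2 changes of 0.62 in males and 1.77 in females (adjusted p = 3.49e-05), and the difference between the sexes was -1.15 (adjusted p = 0.0841). Vegfa had 0.40 in males and 0.50 in females (adjusted p = 0.000439), with a sex difference of -0.11 (adjusted p = 0.726). Neither difference passed.

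The sex difference passed for 147 genes (0.95% of those tested), 54 (0.349%) with a higher and 93 (0.601%) with a lower change in males than in females. The count was 26 with the choroid plexus covariate and 5 without NBC female 1. Of the 30 male genes 6 were among them: Eno1b, Cd82, Adamts1, Nnt, Scx and Cbl. The 30 were chosen on the male change, which is also part of the sex difference, so this overlap is not independent. Adamts1 moved in opposite directions, by -0.59 in males and 0.41 in females (adjusted p = 0.0061), a difference of -1.01 (adjusted p = 0.00271). Cd82 averaged 5.04 ± 0.402 CPM in sPIA males and 10.5 ± 1.69 CPM in NBC males (SD, n = 4 and 3), and 7.87 ± 1.67 CPM in sPIA females and 6.99 ± 1.11 CPM in NBC females (SD, n = 4 each). Its difference between the sexes was -1.23 (adjusted p = 0.0225). The largest differences among other genes were those of Col24a1, Prph, Adamts16 and Prss12 on the positive side and Aldoart1, Ecm2, Trpm3 and Ctsc on the negative side. Prph, an intermediate filament of peripheral neurons, averaged 14 ± 7.80 CPM in sPIA males and 11.9 ± 3.55 CPM in NBC males, and 5.73 ± 1.63 CPM in sPIA females and 24.8 ± 7.60 CPM in NBC females. Trpm3, a cation channel abundant in choroid plexus, averaged 46.5 ± 6.34 CPM in sPIA males and 87.0 ± 33.9 CPM in NBC males, and 55.7 ± 5.10 CPM in sPIA females and 43.1 ± 11.9 CPM in NBC females.

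The fourth question was how severe anemia compared with moderate anemia in males. Between sPIA and mPIA males 762 genes passed (4.92% of those tested), 329 higher (2.13%) and 433 lower (2.8%). The count was 229 without mPIA male 1, 355 without mPIA male 4, and 302, 306 and 1341 without sPIA males 1, 2 and 4. All sPIA males carry P codes and all mPIA males M codes in their names, so the anemia level cannot be told apart from the naming. This comparison shares the sPIA males with the one above, so values are given side by side and not as support for each other. Eno1b had the largest rise, with 36.1 ± 13 CPM in sPIA males and 3.18 ± 0.784 CPM in mPIA males (log2 change 3.49, adjusted p = 0.0021). Lipg, an endothelial lipase, was higher by 2.26 (adjusted p = 0.0209). On the motile cilia list 7 of 26 genes rose and 0 fell. Dnah6, a ciliary dynein, averaged 10.6 ± 4.82 CPM in sPIA males and 2.23 ± 0.754 CPM in mPIA males (log2 change 2.23, adjusted p = 0.0148). Ak7 and Dnah11, which also work in cilia, were higher by 1.91 (adjusted p = 0.00481) and 1.77 (adjusted p = 0.042). In NBC males Dnah6 averaged 9.04 ± 7.10 CPM, which overlapped with the sPIA males.

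Lower in sPIA than in mPIA males were Slc2a5, Dcxr, Mroh7, Miip and Ppp1r3g. Slc2a5, the fructose transporter, which microglia carry in the brain, had 1.01, 1.01, 0.861 and 0.857 CPM in sPIA males, against 4.32, 5.77, 5.72 and 2.98 CPM in mPIA males (log2 change -2.32 ± 0.34, SE, adjusted p = 0.000364). NBC males had 4.09, 2.30 and 2.15 CPM, and against them the log2 change of -1.59 ± 0.36 (SE) had an adjusted p of 0.0618. All 4 sPIA males were thus the lowest of the 11 males. Miip averaged 8.56 ± 1.59 CPM in sPIA males and 18.6 ± 2.85 CPM in mPIA males (log2 change -1.12, adjusted p = 0.000364). Fbxo44 also differed from mPIA males, by -0.86 (adjusted p = 1.86e-05), Tmem100 by 0.99 (adjusted p = 1.86e-05), Cxcl12 by 0.43 (adjusted p = 0.0402) and Kdr by 0.41 (adjusted p = 0.00583). Vegfa and Adm did not pass between the anemia levels, at 0.11 (adjusted p = 0.466) and -0.07 (adjusted p = 0.893). Adamts1 and Cd82 did not pass either, at -0.07 (adjusted p = 0.713) and -0.11 (adjusted p = 0.749).

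**Figure D5:**
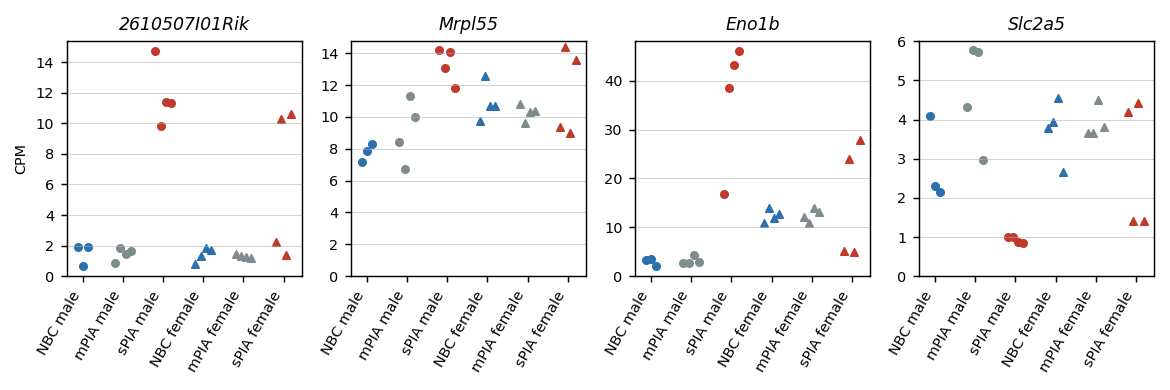
CPM of 2610507I01Rik, Mrpl55, Eno1b and Slc2a5 in every library of the study, by group, with NBC in blue, mPIA in grey and sPIA in red, circles for males and triangles for females. The 4 sPIA males are the highest males for the first 3 genes and the lowest for Slc2a5, and the 4 sPIA females split into 2 with values like those of sPIA males and 2 without.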

How the data were processed

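Hippocampal polyadenylated RNA was sequenced from Illumina TruSeq libraries, per the labels' protocols. The authors deposited read counts per gene as whole numbers, without normalization. The submitters' processing notes name TopHat2 2.0.13, Subread, FastQC, edgeR and build mm10; annotation, strand setting and handling of multiply mapped reads are not given. The 23 columns were matched to samples by name. Rows named by a date, 27 in number, held 0.328% to 0.35% of a library's counts and are not named.

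All 23 libraries entered a single edgeR (4.0.16) quasi-likelihood fit, robust, with 6 group means and TMM normalization, after edgeR's filterByExpr (minimum count 10, minimum total 15). The threshold was a Benjamini-Hochberg adjusted p of 0.05 over the 15475 genes of each comparison. CPM and log2 changes, with standard errors, were computed from the deposited counts, and CPM gives no comparison between genes, since it is not divided by length. Positions come from GENCODE M21, which matched 95.6% of rows. Alternatives used DESeq2 1.42.0 and limma 3.58.1 (voom) in R 4.3.3; tables and plots used Python 3.11.15, pandas 2.3.3 and matplotlib 3.10.9. On counts simulated for sPIA against NBC males (15347 genes, 100 changed by each fold) the test recovered 66% of 1.5-fold and 93% of 2-fold changes, with 4.79% false calls. The simulation gave all 6 groups the same spread per gene and changed only genes above a minimum level. The measured coefficient of variation between libraries was 20.7% in NBC males, 15.2% in sPIA males and 6.85% in mPIA females. The simulated shares therefore may not hold for the real comparison. Chi-square over degrees of freedom was 10.2 to 30.1 between libraries of these groups, above sampling noise, so none was taken for a duplicate.

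The genes named were the 10 largest rises and 10 largest falls among called genes (mean log2 CPM 1 or more, predicted genes left out); those called whichever library was left out; up to 3 called genes per list; and Adm, Vegfa, Slc2a1, Tfrc and Bdnf. Of these, 1 gene that fell is not reported here. Other comparisons took 5 in each direction. The other 8 called genes (2610507I01Rik, Gm10406, Cbl, Nnt, Ltc4s, 2900041M22Rik, Scx and Spon2), the uncalled list members described, and Ttr, Eno1, and Slc2a5 against NBC were named after their values were seen. The comparison, the lists and the markers were chosen with earlier results of these data known.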

Additional observations from a re-analysis of the deposited data

Results flagged for a closer look

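In 2 of the 35 genes examined, 1 sPIA male stood apart from the other 3; chance alone sets a library apart in about 1 in 20 groups. Hspa8 was lowest in sPIA male 4, at 723 CPM with the others at 916 to 935 CPM, a gap of 0.912 of the range. Ltc4s was lowest in sPIA male 1, at 0.277 CPM with the others at 0.658 to 0.696 CPM, a gap of 0.909. Spon2 had its 2 reads in sPIA male 3 and 0 in the others; its gap of 1.0 is the value that 3 libraries at 0 give whatever the fourth holds, and it is not counted.

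Of the 147 genes whose change with severe anemia differed between males and females (edgeR's quasi-likelihood test of the difference, Benjamini-Hochberg), 14 were among the genes named here. Most of the 14 were named as the 5 largest changes in each direction of this same test. The count of 14 therefore follows largely from the naming rule. The male minus the female log2 change was 3.27 for Eno1b (adjusted p = 0.0391), 3.22 for Col24a1 (adjusted p = 0.0469), 2.39 for Prph (adjusted p = 0.0477), 1.60 for Adamts16 (adjusted p = 0.0484) and 1.25 for Prss12 (adjusted p = 0.0225). It was negative for Scx, -4.90 (adjusted p = 0.0232), Aldoart1, -1.64 (adjusted p = 0.0196), Ecm2, -1.47 (adjusted p = 0.0477), Trpm3, -1.27 (adjusted p = 0.0477) and Cd82, -1.23 (adjusted p = 0.0225). It was also negative for Ctsc, -1.19 (adjusted p = 0.0315), Adamts1, -1.01 (adjusted p = 0.00271), Nnt, -0.60 (adjusted p = 0.0466) and Cbl, -0.58 (adjusted p = 0.0225). Aldoart1 averaged 4.95 ± 1.72 CPM in sPIA males and 5.31 ± 0.537 CPM in NBC males, and 5.45 ± 0.653 CPM in sPIA females and 1.90 ± 0.333 CPM in NBC females (SD, n = 4 each, 3 for NBC males), so the NBC females stood apart. It is a copy of the aldolase gene Aldoa, and how reads that match both were counted is not given.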

How the results depend on the processing

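Against the 30 genes of sPIA and NBC males, DESeq2 called 155, DESeq2 size factors 30, no low-count filter 35, limma-voom 22 and removal of GC and length trends 37. The choroid plexus covariate gave 13, the fit on the 11 males 9, on the 7 libraries 6 and without both NBC males 3 and 4, chosen after seeing the data, 3. Leaving out 1 library gave 4 to 249 genes. For sPIA and mPIA males (762 genes) DESeq2 called 1220, and leaving out 1 library gave 229 to 1341: 229 and 355 without mPIA males 1 and 4, and 302, 306 and 1341 without sPIA males 1, 2 and 4. For the sex difference (147 genes) DESeq2 called 463, the choroid plexus covariate 26, and leaving out 1 library gave 5 to 327: 5 and 79 without NBC females 1 and 3, 327 and 49 without NBC males 2 and 4, 42 without sPIA female 3, and 312 and 17 without sPIA males 1 and 4. With the replicate number as a block the counts were 42, 683 and 93; same-numbered sPIA and NBC males did not deviate together (Pearson's r -0.06, -0.05 and -0.08 across genes), so the numbers were not taken as pairs. All 30 genes kept their sign in every setting that tested them. For the fits that only left out libraries this follows from the lack of overlap between the groups in these genes. Bdnf, not called, turned to -0.01 with the name code as a block and ranged from -0.00 (without NBC male 4) to 0.25 with 1 library left out. Except where a value is given beside it, the cause was not tested. Tfrc, not called either, passed with the name code as a block (0.97), a fit to which sPIA males 1 and 2 and NBC male 4 add nothing. Depth limits genes such as Spon2 and Scx, with 2 reads each in the 4 sPIA males together.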

Other observations

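In 5 genes, picked after their values were seen, the 4 sPIA females split into pairs. These libraries also enter the female comparison and the sex difference above. The female change of 2610507I01Rik and the sex difference of Eno1b therefore rest on split values. Other genes shared with females leaned the same way. Tmem100 had 20.1, 28.5, 19.2 and 24.5 CPM in sPIA females 1 to 4, and Fbxo44 had 70.7, 45.8, 61.6 and 51.7 CPM. In these 2 genes and in Dgke, Miip and Slc5a5, females 2 and 4 lay further from the NBC females than females 1 and 3. Kdr and Ablim1 did not show this. 2610507I01Rik had 2.23, 10.3, 1.40 and 10.6 CPM in sPIA females 1 to 4, against 0.827 to 1.84 CPM in NBC females. Females 2 and 4 had levels like those of sPIA males and females 1 and 3 did not. Eno1b had 5.09, 24, 4.85 and 27.8 CPM in the same females, against 10.8 to 14 CPM in NBC females, and Mrpl55 had 9.38, 14.4, 9.01 and 13.6 CPM, against 9.75 to 12.6 CPM in NBC females. Lipg, an endothelial lipase, had 0.901, 2.80, 1.03 and 5.39 CPM, although sPIA male 1, at 1.01 CPM, lay below the 2.07 and 2.26 CPM of NBC males 2 and 3. Slc2a5 had the opposite split, with 4.19, 1.40, 4.43 and 1.40 CPM. Cxcl12, which rose in males, showed no such split, with 127, 103, 99.1 and 121 CPM in sPIA females 1 to 4. The name codes of sPIA females 2 and 4 begin with P11 and P14, as do those of sPIA males 3 and 4. NBC male 3 also has a code beginning with P14, and it had 0.678 CPM of 2610507I01Rik and 3.50 CPM of Eno1b. What sets these animals apart was not tested.

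Gapdh, often used as a reference gene, had 19.5 to 25.0 CPM in sPIA males and 27.5, 20.8 and 99.2 CPM in NBC males 2, 3 and 4. NBC male 4 alone was high, and the 16 libraries of the other 4 groups had 18.4 to 24.5 CPM. Gapdh has many near-identical copies in the mouse genome, and how reads that match several were counted is not given, so its level is uncertain. NBC male 4 had the fewest genes detected of the 7 libraries, 15961, against 16431 to 17140 in the others.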
